A study of Zea mays with 4 samples.

Results

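Covered here are 18 maize array probes for aquaporins, the water channels of the plasma membrane and of the tonoplast (the vacuolar membrane), among 55547 maize probe identifiers. They are the maize probes with a single spot on 1 of the 2 array versions that were either listed by identifier (10 probes) or whose annotation names an aquaporin, a membrane or tonoplast intrinsic protein or a water channel (8 further probes). Version A held 8 of them and version B 10. By the text of the annotation 8 belong to the plasma membrane group and 7 to the tonoplast group, and 3 are described as aquaporins without a membrane. The 18 probes share 9 top protein hits, so several of them may address the same protein and cannot be counted as independent genes. Whether probes of a shared hit detect the same gene was not tested. Below, aquaporin probes means these 18. The arrays carried 44 further probes of the family, including plasma membrane and tonoplast members named integral proteins, which are described separately.

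Aquaporins belong to the major intrinsic protein family, whose members form pores for water and, in some cases, for small uncharged solutes. Plasma membrane intrinsic proteins (PIPs) carry water into and out of the cell, and tonoplast intrinsic proteins (TIPs) carry it between cytosol and vacuole. In maize, PIP1 proteins need a PIP2 partner to reach the plasma membrane. In roots both groups contribute to the cell-to-cell path of water uptake, and the water permeability of roots is known to respond to the nitrate supply.

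The study used a split-root culture of maize, in which each plant's roots were divided between separate compartments. Plants grew 6 days in 0.5 mM nitrate and then 2 days without nitrogen. Roots on one side then received 1 mM nitrate, while those on the other side stayed nitrogen-free with 1 mM calcium chloride. Both sides were harvested after 1 h, at day 10, as root pieces of 15 cm measured from the tip. Control RNA thus came from roots on nitrate-fed plants, after the same nitrogen deprivation, and not from plants without any nitrate. The maize line is not given in the labels. Each of 4 arrays held nitrate-side RNA in Cy3 and control-side RNA in Cy5, with 2 replicate arrays per version. With the same dye orientation on every array, a probe-specific dye effect and the effect of nitrate cannot be told apart. Headers name the control RNA CK1 and CK1-2, which leaves it open whether the replicates came from separate plants, although the series text speaks of biological replicates. The spread between arrays may thus be partly technical. The p-values measure only that spread, of the probe itself and, through the moderated test, of all tested probes of its version.

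All values below are log2 ratios of the nitrate-fed over the control side within an array, after background adjustment and loess normalization, unless an intensity is named. Intensities are the deposited, background-subtracted spot brightness of each dye. Array medians over maize probes were 1572.5 to 1939 for the nitrate dye and 1438 to 1960 for the control dye, and the 95th percentile of blank and buffer spots was at most 242.45. The number of arrays limits the precision. Nitrate and nitrite reductase probes, the classical nitrate-induced genes, checked the labels: 5 of 5 for version A and 3 of 6 for version B had a ratio above 0 on both arrays, against 30.4% and 29.7% of all tested probes, and their median was 0.76 on version A and 0.92 on version B. Leaf markers (Rubisco small subunit and chlorophyll-binding proteins), which define another organ, had medians of -0.16 and -0.08, and 51 of 52 of those probes were above blank spots in at least 1 dye on both arrays; their part in the aquaporin values was not tested.

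Among the aquaporin probes, 1 tonoplast probe was called higher with nitrate in the main fit, and none was called lower. That call was lost in 6 of 9 other ways of processing. MZ00040544, a ZmTIP2-3 probe, was 4.47-fold higher on the nitrate-fed side and passed the limma test of all version B probes. It was 1 of 9 tested aquaporin probes on version B, where 0.0444% of all tested probes passed as higher. On version A 0 of 8 aquaporin probes passed limma, where 0% of all tested probes did. At an unadjusted limma p under 0.05, 2 of 8 were higher on version A, against 7.55% of all tested probes, and 4 of 9 on version B, against 7.65%. None was lower at that level on either version, against 4.49% and 5.29% of all tested probes. A moderated test with a maximum-likelihood prior called no probe on either version. In bulk roots, a change in the number of cells that use a gene and a change in RNA per cell cannot be told apart.

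Counts by size do not use the test. At least 2-fold higher on both arrays were 1 of 8 probes on version A, against 0.592% of all tested probes, and 3 of 9 on version B, against 0.59%. At least 2-fold lower on both arrays were 0 of 8 and 0 of 9, against 0.127% and 0.0566%. Ratios lay above 0 on both arrays for 3 of 8 probes on version A, where 30.4% of all tested probes did, and for 7 of 9 on version B, where 29.7% did. Both ratios were below 0 for 3 of 8 on version A, against 30.1%, and for 1 of 9 on version B, against 30.6%. The median was 0.13 on version A and 0.52 on version B, beside 0.0038 and -0.0037 over all tested probes. Within a single array of version A the median of the 8 probes was -0.015 (replicate 1) and -0.013 (replicate 2). Each array alone thus gave a median just below 0, and only the median of the probe means over both arrays was above 0.

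**Figure D1:**
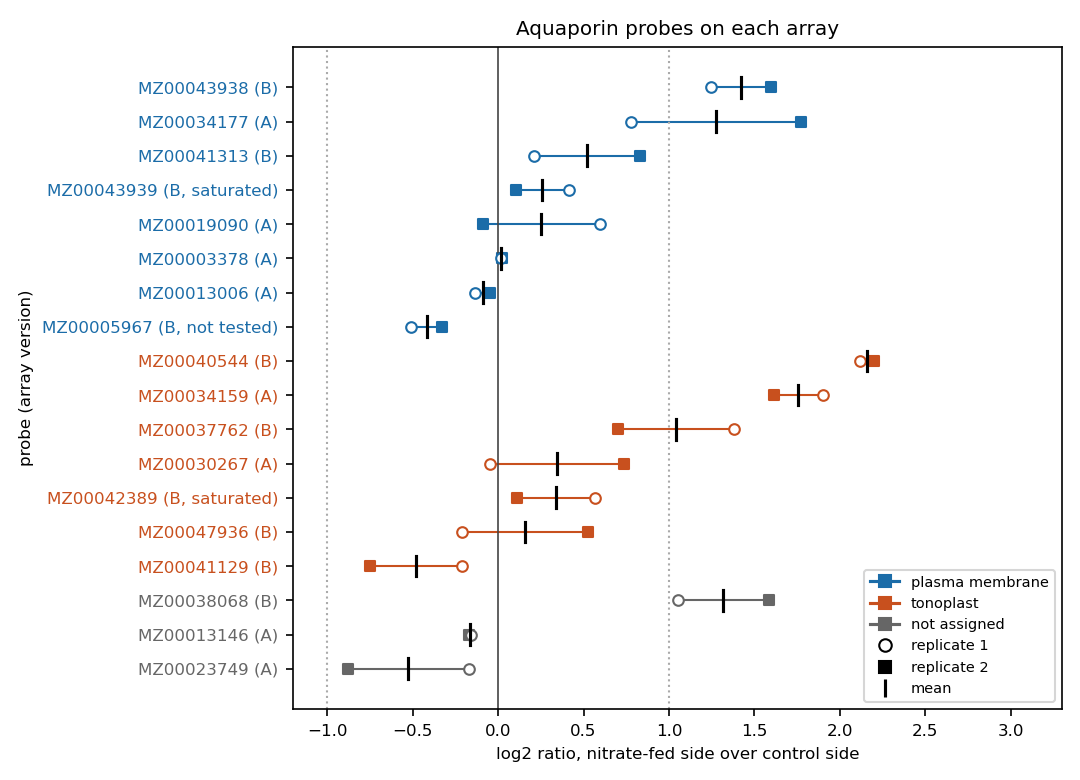
Log2 ratio of nitrate-fed over control side (x axis) for each of the 18 aquaporin probes (y axis, array version in brackets), with an open circle for replicate 1, a square for replicate 2 and a bar for their mean; dotted lines mark a 2-fold difference. MZ00040544 has the highest mean at 2.16, and MZ00023749 the lowest at -0.53.

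Among tonoplast aquaporins, 3 probes share the protein hit annotated as ZmTIP2-3, a vacuolar water channel that RefSeq lists as LOC541687. MZ00040544 had intensities of 4655 and 14404 with nitrate and 1079 and 2720 in the control on replicates 1 and 2 of version B. The nitrate channel was brighter on both arrays. Its log2 ratios were 2.12 and 2.20, a mean of 2.16 ± 0.06 (SD, n = 2; limma adjusted p = 0.0263), the 16th highest of 24748 tested probes. This call was lost in 6 of 9 other ways of processing, where the ratio stayed between 1.92 and 2.32; over all 9 the adjusted p of limma or of the maximum-likelihood test ran from 0.0147 to 0.569.

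The other probes of that protein hit had smaller ratios. MZ00042389 was saturated in the nitrate channel on both arrays (73670 and 63244) and in the control channel on replicate 2 (63356), with 64769 on replicate 1. Its ratios of 0.57 and 0.11 are therefore compressed at the top of the scale, and its mean of 0.34 turned to -0.064 with median centring, so no fold is given. MZ00030267, on version A, had 772 and 698 with nitrate against 772 and 286 in the control. The channels were equally bright on replicate 1 and apart on replicate 2, which gave ratios of -0.046 and 0.74 and a mean of 0.35 ± 0.55 (SD, n = 2; limma adjusted p = 0.615). The array annotation of MZ00040544 lists the contigs of both other probes as similar maize sequences. That of MZ00042389 lists as a maize match AZM4_40127, which is also listed for the ZmTIP5-1 probes MZ00031209 and MZ00037775. Whether the 3 probes of the ZmTIP2-3 hit detect the same transcripts was not tested.

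A second set of 3 probes shares a protein hit described as tonoplast water channel and tonoplast intrinsic protein. MZ00034159 on version A had intensities of 891 and 1778 with nitrate against 124 and 424 in the control. The nitrate channel was the brighter one on each of the arrays. The ratios were 1.90 and 1.61, the mean 1.76 ± 0.21 (SD, n = 2), or 3.38-fold, and the interval of the limma fit ran from 1.21 to 2.30. It did not pass over all probes (limma adjusted p = 0.141), though it held rank 26 of 28374 by p.

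MZ00041129 on version B was designed to the same contig, TC219140, and went the other way. Its intensities were 376 and 69 with nitrate and 310 and 106 in the control, below the limit of the blank spots in the nitrate channel of replicate 2. Its ratios were -0.21 and -0.75, with a mean of -0.48 ± 0.38 (SD, n = 2; limma adjusted p = 0.467), or -0.021 with median centring and -1.13 with plain background subtraction. MZ00037762, on the same version, had 8725 and 16583 with nitrate and 4136 and 9898 in the control. Nitrate was brighter on each array, but the channels overlapped between arrays. Its ratios were 1.38 and 0.70, a mean of 1.04 ± 0.48 (SD, n = 2; limma adjusted p = 0.183).

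The remaining tonoplast probe, MZ00047936, is annotated after a rice protein described as a water-stress-induced tonoplast intrinsic protein. It had 221 and 552 with nitrate and 167 and 190 in the control, and was above the blank spots in the nitrate channel on 1 of 2 arrays. Its ratios of -0.21 and 0.53 had opposite signs, with a mean of 0.16 ± 0.52 (SD, n = 2; limma adjusted p = 0.84). It shares a listed rice gene model with all 3 aquaporin probes of no stated membrane, and shares none with the other tonoplast probes. That model is also listed for plasma membrane probes outside the 18, among them ZmPIP2-1 (MZ00023748), ZmPIP2-3 (MZ00026503) and ZmPIP2-4 (MZ00026320). No tonoplast probe outside the 18 lists it, though some list no rice model, and no plasma membrane probe among the 18 does. The place of MZ00047936 in the tonoplast group thus rests on the annotation text, and the membrane of these proteins was not tested.

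Of the plasma membrane group, 3 probes on version B share the protein hit annotated as ZmPIP1-5 (LOC542014 in RefSeq), a PIP1 water channel. MZ00043938 had 3615 and 6970 with nitrate against 1636 and 1864 in the control. On both arrays nitrate was brighter. Its ratios were 1.24 and 1.60, with a mean of 1.42 ± 0.25 (SD, n = 2), or 2.68-fold, and a limma interval from 0.87 to 1.97 (limma adjusted p = 0.091). MZ00043939, from the neighbouring contig number TC222965, was near the ceiling in both channels, with 73717 and 62990 against 71780 and 63407. It counted as saturated on both arrays with nitrate and on 1 in the control, and its mean of 0.26 turned to -0.14 with median centring. Of the 18 probes, only MZ00005967 was too dim to be tested, with 297 and 45 against 329 and 33 and ratios of -0.51 and -0.33.

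Another 3 probes share a protein hit described as plasma membrane intrinsic protein. MZ00034177 on version A had 904 and 5615 with nitrate against 447 and 1493 in the control. Nitrate was brighter on each array, while the level in both dyes was several times higher on replicate 2. The ratios were 0.78 and 1.77, a mean of 1.28 ± 0.70 (SD, n = 2; limma adjusted p = 0.277). MZ00041313 on version B was designed to the same contig, TC234414, and had 904 and 228 against 658 and 11. Its control value on replicate 2 lay below the blank spots. Its mean was 0.52 ± 0.44 (SD, n = 2; limma adjusted p = 0.436) after the normexp adjustment, 1.64 with the deposited ratios and 0.83 with median centring. MZ00003378 on version A had 540 and 294 against 485 and 194, and ratios of 0.015 and 0.020 (limma adjusted p = 0.982).

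MZ00019090, described as aquaporin and plasma membrane intrinsic protein, was the brightest of the 8 version A probes. Its intensities were 48139 and 24367 with nitrate against 42641 and 32063 in the control. The side with more signal differed between the replicates. Its ratios were 0.59 and -0.091, a mean of 0.25 ± 0.48 (SD, n = 2; limma adjusted p = 0.71) that turned to -0.16 with median centring. MZ00013006, a plasma membrane intrinsic protein homolog, was the dimmest of those 8 probes, with 94 and 54 against 74 and 14. Its control value on replicate 2 lay below the limit of the blank spots. Its mean of -0.091 ± 0.06 (SD, n = 2; limma adjusted p = 0.888) turned to 0.30 with median centring.

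Of the aquaporin probes with no stated membrane, MZ00038068 on version B had 7440 and 39007 with nitrate against 4434 and 13199 in the control. Nitrate was brighter on each array, and replicate 2 was brighter than replicate 1 in both dyes. Its ratios were 1.05 and 1.59, a mean of 1.32 ± 0.38 (SD, n = 2), or 2.49-fold, with a limma interval from 0.75 to 1.89 (limma adjusted p = 0.11). With median centring the ratios were 0.77 and 1.21, so it was no longer 2-fold higher on both arrays. Its annotation lists as a similar maize sequence the contig of a ZmPIP2-1 probe on version A (MZ00023748), which was saturated in the control and had a ratio of 0.20, or -0.24 with median centring. MZ00023749 on version A shares the protein hit of MZ00038068 and had the opposite sign. Its intensities were 931 and 485 with nitrate against 1055 and 782 in the control, lower with nitrate on each array. The ratios were -0.17 and -0.88, a mean of -0.53 ± 0.50 (SD, n = 2; limma adjusted p = 0.46), with an interval from -1.15 to 0.095. MZ00013146, annotated after the rain tree Samanea saman, had 1208 and 1453 against 1390 and 1447 and nearly equal ratios of -0.16 and -0.17 (limma adjusted p = 0.784).

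**Figure D2:**
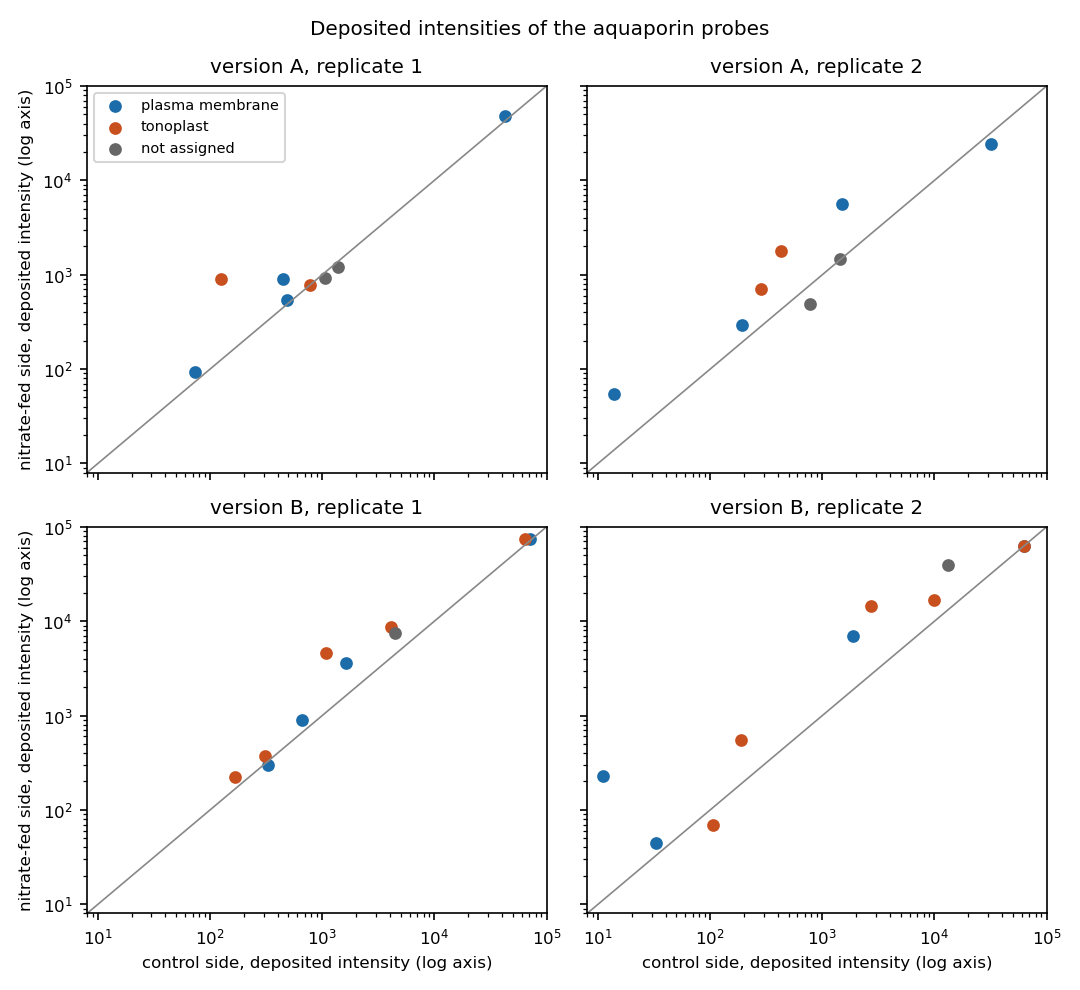
Deposited intensity of each aquaporin probe with nitrate (y axis, log scale) against the control side (x axis, log scale), 1 panel per array, with colours for the annotation group and the diagonal for equal brightness. Near the ceiling the ZmTIP2-3 probe MZ00042389 and the ZmPIP1-5 probe MZ00043939 lie on or beside the diagonal, while MZ00040544 lies above it on both version B arrays.

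Probes with the same protein hit are set side by side here only where they were unsaturated and above blank spots in both dyes on both arrays. For ZmTIP2-3 these were MZ00040544 (2.16, version B) and MZ00030267 (0.35, version A), and for the tonoplast water channel MZ00034159 (1.76, version A) and MZ00037762 (1.04, version B). For the protein hit of MZ00038068 (1.32, version B) the other such probe was MZ00023749 (-0.53, version A). These pairs cross array versions that were normalized separately. Within version A, MZ00034177 (1.28) and MZ00003378 (0.018) share a hit. ZmPIP1-5 had 1 such probe, MZ00043938. The differences between probes of a hit were not tested, and no set held 2 probes that were both at least 2-fold higher on both arrays.

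**Figure D3:**
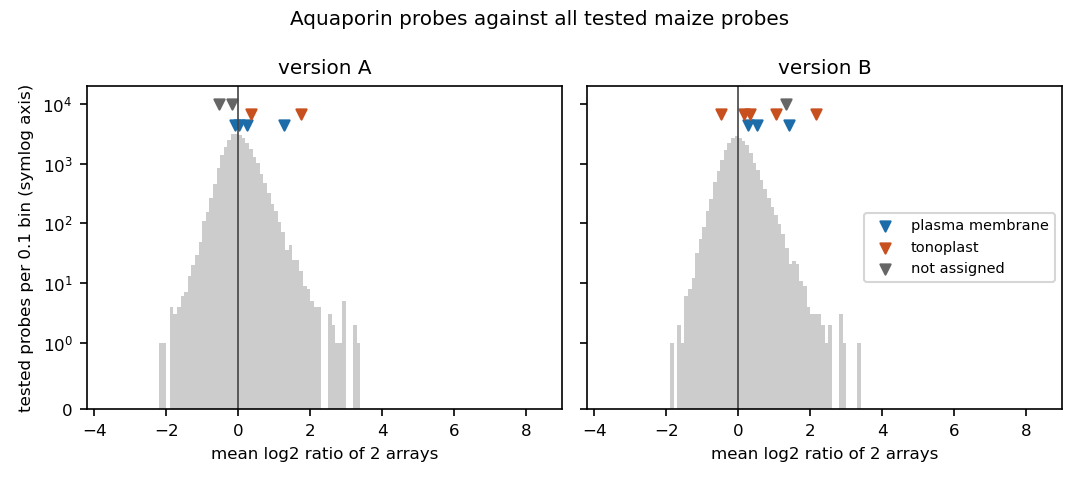
Mean log2 ratio (x axis) of all tested maize probes as a histogram (y axis, probes per 0.1 bin, symlog scale), with triangles for the tested aquaporin probes by annotation group. The 8 version A probes have a median of 0.13 and the 9 version B probes one of 0.52, beside medians near 0 for all probes.

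The annotation names further members of the family as integral proteins or major intrinsic proteins, 44 probes outside the 18. This list was chosen after the annotation text was read. Of 43 tested, none passed limma. At an unadjusted limma p under 0.05, 3 of 29 were higher for version A and 2 of 14 for version B, against 7.55% and 7.65% of all tested probes. Lower at that level were 0 of 29 and 3 of 14, against 4.49% and 5.29%. Ratios above 0 on both arrays occurred for 17 of 29 on version A, against 30.4% of all tested probes, and for 3 of 14 on version B, against 29.7%. Their median was 0.17 on version A and -0.097 on version B.

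One of these probes had a pattern like that of MZ00040544. The ZmTIP2-2 probe MZ00037278, of a close relative among the vacuolar channels, had 9776 and 28039 with nitrate against 3293 and 8217 in the control. Its ratios were 1.85 and 1.74, a mean of 1.80 ± 0.07 (SD, n = 2), just short of the threshold (limma adjusted p = 0.052). It is named after its value was seen. Another ZmTIP2-2 probe, MZ00028300 on version A, was saturated in the control and had 0.12, or -0.32 with median centring. The ZmTIP2-1 probes had 0.33 ± 0.41 (MZ00034365) and 0.42 ± 1.31 (MZ00036684; SD, n = 2 each), the latter with opposite signs on its 2 arrays. Probes for ZmTIP3-1 and ZmTIP3-2, vacuolar channels best known from seeds, ranged from -0.40 (MZ00040659) to 0.0016 (MZ00024641).

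Plasma membrane members of that list on version A had a median of 0.36, which turned to -0.02 with median centring. Above 0 on both arrays were 7 of 9, against 30.4% of all tested probes, but 3 of the 7 (MZ00026320, MZ00023748 and MZ00016732) were saturated in at least 1 dye. The highest were a ZmPIP1-4 and ZmPIP1-3 probe (MZ00014309) with 0.99 ± 0.36, ZmPIP2-3 (MZ00026503) with 0.77 ± 0.51 and ZmPIP1-6 (MZ00018964) with 0.64 ± 0.48 (SD, n = 2 each; limma adjusted p = 0.285, 0.366 and 0.408). A second probe of ZmPIP1-4 and ZmPIP1-3, MZ00014308, had -0.29 ± 0.04. ZmPIP2-4 (MZ00026320) was saturated in both channels on both arrays and gives no measure of change.

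**Figure D4:**
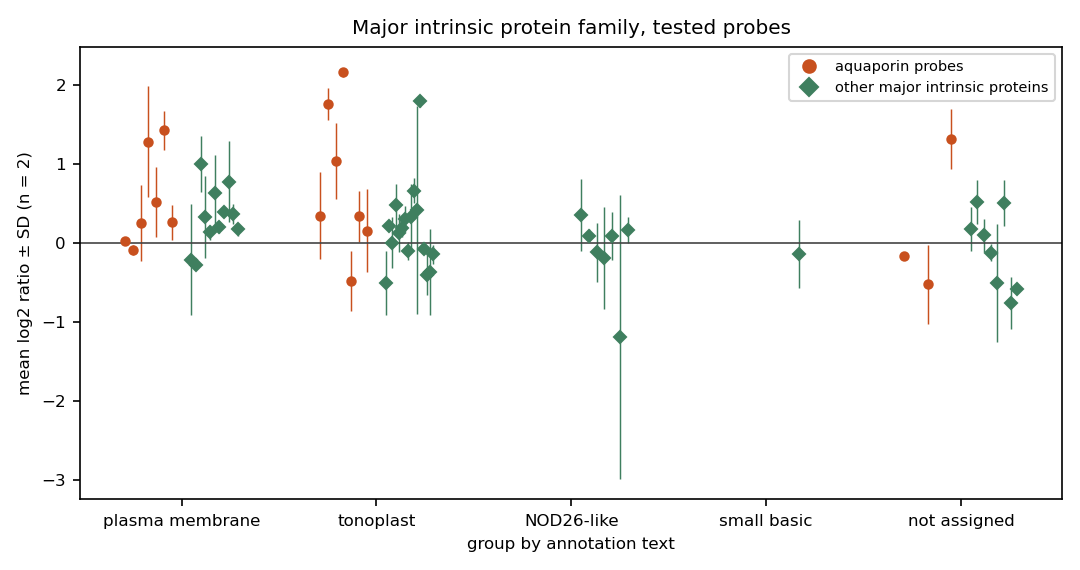
Mean log2 ratio with SD over 2 arrays (y axis) of the tested aquaporin probes (circles) and of the other tested major intrinsic protein probes (diamonds), by annotation group (x axis). MZ00040544 at 2.16 and the ZmTIP2-2 probe MZ00037278 at 1.80 are the highest of each kind.

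Genes that work beside the aquaporins were described from lists by annotation. Proton pumps of the tonoplast and plasma membrane, which set up the gradients that drive solute transport across the same membranes, had a median of 0.14 on version A and 0.18 on version B, or 0.03 on both with median centring. At an unadjusted limma p under 0.05, 6 of 36 pump probes were higher for version A and 7 of 38 for version B, against 7.55% and 7.65% of all tested probes. Lower at that level were 1 of 36 and 1 of 38, against 4.49% and 5.29%. None of the 74 passed limma, and none was 2-fold higher or lower on both arrays. Nitrate transporter probes had medians of -0.093 and 0.016, with none of 26 past limma. At that unadjusted level 1 of 10 was higher for version A and 0 of 16 for version B, beside the same shares of all probes, and none was lower. Markers of lignifying, vessel and endodermal cells, in which root aquaporins are abundant, had medians of -0.088 and 0.06, with none of 46 past limma. At that level 2 of 24 were higher and 2 of 24 lower on version A, beside 7.55% and 4.49% of all probes, and 0 of 22 either way on version B, beside 7.65% and 5.29%. Seed markers had medians of 0.08 and 0.06, with none of 212 past limma. At that level 5 of 52 were higher and 3 of 52 lower on version A, beside 7.55% and 4.49%, and 18 of 160 higher and 4 of 160 lower on version B, beside 7.65% and 5.29%. The part of any change in tissue make-up in the aquaporin values was not tested.

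**Figure D5:**
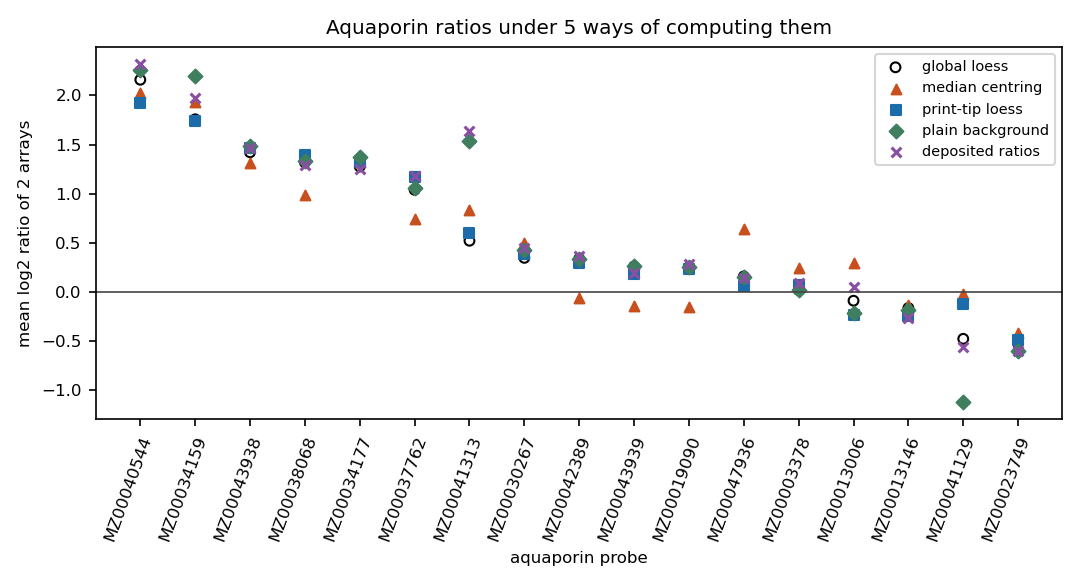
Mean log2 ratio (y axis) of the 17 tested aquaporin probes (x axis, ordered by the value after global loess) under 5 ways of computing it. The 6 highest probes stay above 0.7 in all 5, and 3 bright probes, MZ00042389, MZ00043939 and MZ00019090, lie below 0 only with median centring.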

How the data were processed

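Total root RNA was hybridised to spotted 2-colour arrays of 32448 spots. Per the file headers, the deposited intensity is given per dye; some are below 0, so the authors had subtracted a background, and how they did so is not given in the sources used here. Each deposited ratio, nitrate over control per the labels, had array medians from 0.996 to 1.01, so it was normalized within arrays, and the value table of the series holds the same ratios.

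Log2 ratios were computed from the intensities with limma 3.58.1 in R 4.3.3 (normexp, offset 50; global loess; control spots at weight 0). Spots flagged B (4 to 10 per array) were left out. A spot was tested when at least 1 channel exceeded the 95th percentile of blank and buffer spots on both arrays, and spots of a probe were then averaged, leaving 28374 tested probes for version A and 24748 for version B. A channel at 98% or more of the highest maize probe of its array counted as saturated. lmFit and eBayes tested the mean against 0 per version, with Benjamini-Hochberg adjustment over all its probes and a threshold of 0.05, and with 95% intervals. The prior variance, estimated from all tested probes, had 5.77 degrees of freedom for version A and 8.2 for version B. Each probe added 1 residual degree of freedom. Simulated data were also put through the fit. They were drawn from its own estimated variances, without a dye effect, so they cannot test those assumptions. Alternatives changed the background, normalization, dim filter, prior, values and arrays. All 18 probes are accounted for: the rule gave in full those called, those 2-fold on both arrays, the 3 highest and 3 lowest means per group and version, the 10 listed identifiers and groups of 4 or fewer. Names were matched to RefSeq synonyms (assembly Zm-B73-REFERENCE-NAM-5.0), with 25 of 28 family names matching 1 gene. Probe sequences are not used here. Members and lists were chosen with earlier results of these data known.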

Additional observations from a re-analysis of the deposited data

How the results depend on the processing

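Against 9 alternatives, single probes kept their sign and their side of the threshold in 139 comparisons, 5 turned in sign, and 6 lost a call. Only MZ00040544 had a call to lose, and all 6 losses were its own. Every other probe kept its side of the threshold by staying uncalled. MZ00040544 kept its call with median centring, without the dim filter and with both channels required above blank spots. It lost it, so that the version B count fell to 0, with plain background subtraction, print-tip loess, scaling between arrays, a trended robust prior, a maximum-likelihood prior and the deposited ratios (adjusted p = 0.392, 0.077, 0.0566, 0.569, 0.257 and 0.54; limma, or the moderated test with the maximum-likelihood prior). Signs turned with median centring for MZ00013006 (0.30), MZ00019090 (-0.16), MZ00042389 (-0.064) and MZ00043939 (-0.14), and with the deposited ratios for MZ00013006 (0.049). The cause was not tested.

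The version A median of 0.13 became 0.27 with median centring, 0.15 with print-tip loess, 0.14 with scaling, 0.25 with both channels required and 0.18 with the deposited ratios; with single arrays it was -0.015 and -0.013. The version B median of 0.52 became 1.06 with plain background, 0.74 with median centring, 1.18 with both channels required (6 probes left) and 1.18 with the deposited ratios; with single arrays it was 0.57 and 0.70. Probes at least 2-fold higher numbered 1 and 2 with single arrays of version A. On version B the count on both arrays was 2 with median centring, against 3 in the main fit. Over all tested version B probes it was 314 of 24748 with median centring, against 146 in the main fit. Over all probes, calls on version B ranged from 0 to 23 against 11, and on version A from 0 to 8 against 0. No paired analysis was possible because both RNAs of a replicate share an array, so each ratio is already paired, and the versions hold different probes. Signal limits the saturated probes and those near blank spots.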

Other observations

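Some major intrinsic proteins that are best known for other solutes were also on the arrays. NOD26-like proteins include the silicon transporters of grass roots, and ZmNIP2-1 carries the RefSeq synonym Lsi1. Its 2 probes had log2 ratios of 0.36 ± 0.45 (MZ00004295) and -0.19 ± 0.64 (MZ00016581; SD, n = 2 each), without a limma call. ZmNIP2-2 (MZ00026785) had the lowest mean of the family at -1.19 ± 1.79 (SD, n = 2; limma adjusted p = 0.351), with -2.45 on replicate 1 and 0.083 on replicate 2. Its control intensity was 4844 on replicate 1 and 1103 on replicate 2, against 675 and 1578 with nitrate, so that the low mean rests on replicate 1. The small basic protein ZmSIP1-2 (MZ00016631), a family member of internal membranes, had -0.14 ± 0.43.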
